A study of Mus musculus with 9 samples.

Results

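The comparison described here sets small RNA libraries from macrophages given ginsenoside Rd (GRd) at 10 µM against control libraries, 3 in each group. These are 6 of the 9 libraries of the study, and all 1571 distinct sequences of its table were used, chosen by no measured value. GRd is a saponin from ginseng. RAW264.7 is a mouse macrophage-like cell line, with the genotype label WT. The 10 µM libraries carry the treatment label LPS and 10 uM GRd, with lipopolysaccharide (LPS), the bacterial cell wall component that activates macrophages through Toll-like receptor 4, for 6 h and GRd after it for 24 h. The control libraries carry the treatment label no LPS or GRd, whereas their sample description gives 0Rd and the protocol shared by all libraries begins with LPS. The labels do not settle which holds, so a difference between the groups may belong to GRd alone or to LPS and GRd together, and these cannot be told apart. The remaining 3 libraries had LPS and GRd at 1 µM. Library 3 at 10 µM has RAW264.8 as its cell line label, although its title names RAW264.7 like the other libraries. Nothing in the labels says that libraries of a group came from separate cultures, so the p-values measure the spread between these libraries, which may be technical.

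MicroRNAs (miRNAs) are short RNAs that guide Argonaute proteins to messenger RNAs, mostly through pairing of the seed, bases 2 to 8 from the 5′ end. miRNAs with the same seed form a family with largely shared targets. In macrophages, Toll-like receptor signalling through NF-κB induces miR-155, which lowers inhibitors of inflammatory signalling such as Socs1, and miR-146a, which lowers the signalling proteins Irak1 and Traf6 and so limits the response.

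The sequences on which the results turn are given as deposited, in DNA letters, 5′ to 3′, with the seed in capitals. Of the 17 shown, 12 equal the RefSeq mature sequence (GRCm38.p6), the others differ from it at an end, and all 17 have its seed. The first set shares the miR-181 seed, and the second the miR-148/miR-152 seed.
miR-181a-5p: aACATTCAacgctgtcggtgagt
miR-181b-5p: aACATTCAttgctgtcggtgggt
miR-148a-3p: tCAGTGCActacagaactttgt
miR-148b-3p: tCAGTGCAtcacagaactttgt
miR-152-3p: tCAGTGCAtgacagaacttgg
The next set lay below control in all 3 libraries at 10 µM.
miR-221-5p: aCCTGGCAtacaatgtagattt
miR-331-3p: gCCCCTGGgcctatcctagaa
miR-503-5p: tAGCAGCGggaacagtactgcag
miR-342-3p: tCTCACACagaaatcgcacccgtc
Those after it lay above control in all 3 libraries, by amounts that differed widely between the libraries.
miR-212-5p: aCCTTGGCtctagactgcttact
miR-671-3p: tCCGGTTCtcagggctccacc
miR-34b-3p: aATCACTAactccactgccatc
miR-451a: aAACCGTTaccattactgagt
miR-10b-5p: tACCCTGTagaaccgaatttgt
miR-214-3p: aCAGCAGGcacagacaggcagt
The last pair are the classical miRNAs of the Toll-like receptor response, shown because their groups overlapped.
miR-155-5p: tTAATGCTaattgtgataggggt
miR-146a-5p: tGAGAACTgaattccatgggtt

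The deposited normalized counts summed to between 6401246 and 6815351 in the 10 µM libraries and between 6307952 and 6542215 in the control libraries. Read depth behind these values is unknown. Sequences found in mouse miRNA hairpins made up 97.6 to 98.5% of the 10 µM libraries and 98.5 to 98.7% of the control libraries. miRNAs of the blood and myeloid lineage, by which the cell type label was checked, were present in every library. Their list of 10 summed to 12552, 10121 and 6754 normalized counts in 10 µM libraries 1, 2 and 3, against 10764, 9687 and 8650 in the control libraries. Among the most abundant of them, miR-142a-5p, a miRNA of blood-forming lineages, had 6958, 5982 and 2811 normalized counts at 10 µM, against 5929, 5019 and 4966 in control, so that 10 µM library 3 was below all controls and libraries 1 and 2 above them, with a log2 difference of -0.11 ± 0.26 (SE). The other arm of that hairpin, miR-142a-3p, was instead highest in 10 µM library 3, and its groups overlapped. miR-223-3p, a miRNA of neutrophils and macrophages, had 1110, 969.2 and 801.7 normalized counts at 10 µM, against 967.2, 970.9 and 799.6 in control. Its groups overlapped, with a log2 difference of 0.07 ± 0.19 (SE).

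No sequence passed the test. With limma on log2(normalized count + 1), 0 of 1561 sequences tested (0.0%) had a Benjamini-Hochberg adjusted p under 0.05. The lowest was 0.224. At an unadjusted p under 0.05, limma counted 86 sequences (5.51%), of which 59 were higher and 27 lower at 10 µM, so the share lies close to the threshold itself. Differences below, all 10 µM minus control on this log2 scale, are therefore described with their errors and are not calls. The scale understates changes of low sequences. Of the 1561 sequences, 971 were higher and 590 lower, and 58 (3.72%) lay above and 40 (2.56%) below all controls in all 3 libraries. The median difference was 0.14 over all sequences tested and 0.01 over the 417 that averaged 50 or more normalized counts in the 6 libraries, of which 216 were higher and 201 lower.

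The 3 libraries at 10 µM differed from each other more than the control libraries did. The median standard deviation of log2 values over the 417 sequences was 0.46 at 10 µM, against 0.17 in control. Over 10 µM libraries 1 and 2 alone it was 0.20. Library 1 had 3 sequences over 2-fold above the highest control value and 0 over 2-fold below the lowest. Library 2 had 11 above and 2 below, and library 3 had 52 above and 28 below. The average that defines the 417 includes these libraries, so a sequence high in a single library can enter through it. An example is miR-298-5p, with 332.0 normalized counts in library 3 and 0 in the other libraries compared. For library 3 the median Pearson correlation of log2 values with the other libraries, across sequences, was 0.914, beside 0.991 for library 1 and 0.972 for library 2. These libraries are given one by one in what follows.

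**Figure D1:**
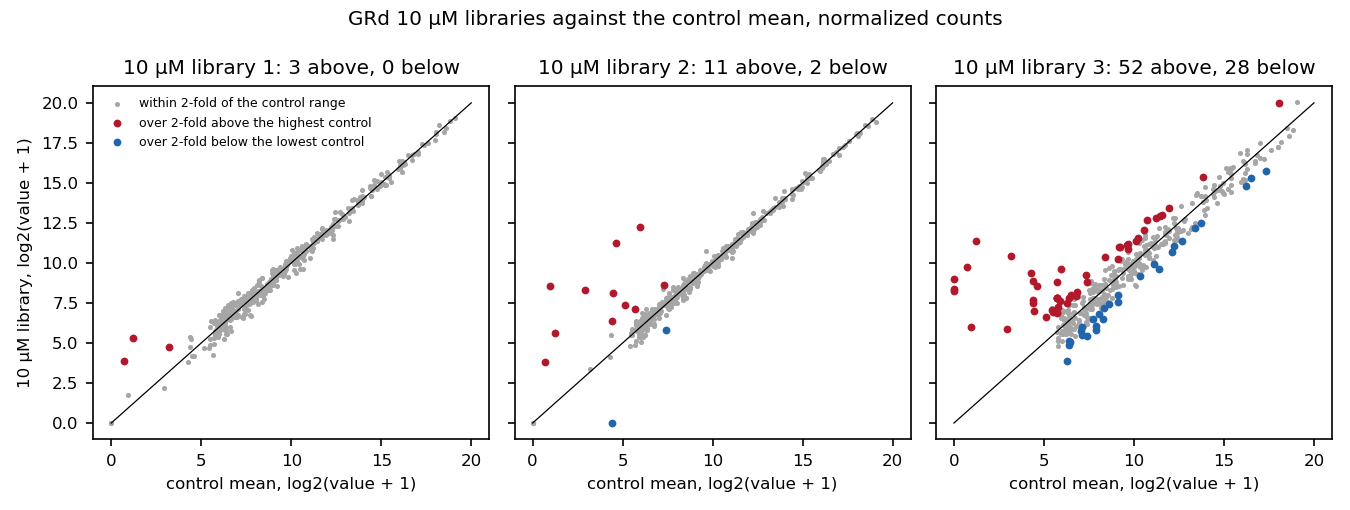
Each 10 µM library (vertical axis) against the control mean (horizontal axis), both as log2(normalized count + 1), for the 417 abundant sequences, with the line of equality. Red and blue points lie over 2-fold outside the control range, 3 above and 0 below in library 1, 11 and 2 in library 2, and 52 and 28 in library 3. The average that defines the 417 includes the 10 µM libraries, so a sequence high in a single library can enter through it.

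Some abundant sequences lay on 1 side of all controls in all 3 libraries. Of the 417 sequences, 23 (5.52%) had all 3 values at 10 µM above all control values, and 18 (4.32%) had all 3 below. The average that defines the 417 includes the 10 µM values, so high values there can bring a sequence in. Among the 23, miR-214-3p, miR-145a-5p, miR-10b-5p, miR-34b-3p and miR-451a entered in this way, with control averages of 1.14 to 21.0. With 3 libraries against 3, shares of this size without overlap also arise where groups do not differ. The counts are therefore no sign of a group difference. The most marked of the 41 are described next, beginning with those that were lower.

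The abundant sequences of the miR-181 family were lower at 10 µM in each library. miR-181a-5p, which tunes receptor signalling strength in lymphocytes, had 30363, 32949 and 24664 normalized counts at 10 µM, against 37476, 40155 and 37658 in control. All libraries at 10 µM were below all controls, library 3 the furthest. The log2 difference was -0.40 ± 0.18 (SE, n = 3 per group), with limma's unadjusted p = 0.0402 and adjusted p = 0.665. miR-181b-5p, encoded beside miR-181a at both of its loci and described as a restraint on NF-κB signalling in endothelium, had 14954, 14219 and 10267 normalized counts at 10 µM, against 14990, 15103 and 15054 in control. Library 1 lay only just under the lowest control, and the log2 difference was -0.21 ± 0.18 (SE), or -0.05 without library 3. A longer variant of miR-181a, deposited under the opossum name mdo-miR-181a-5p_R+3_1, had 277.7, 225.9 and 188.7 normalized counts at 10 µM, against 517.6, 317.2 and 301.0 in control, with a log2 difference of -0.68 ± 0.32 (SE), or -0.44 without control library 1. The variant numbered 2 carries the same values in every library. It is included in the counts of sequences, such as the 18 below all controls, but adds no separate observation. Less abundant family members were mixed. miR-181d-5p had 35.3, 38.9 and 23.4 normalized counts at 10 µM, against 52.0, 46.7 and 38.5 in control, and the groups overlapped narrowly. miR-181c-5p had 37.6, 40.0 and 19.3 at 10 µM, against 34.0, 30.2 and 30.5 in control, and overlapped.

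The family with the miR-148/miR-152 seed was not uniform. miR-152-3p, which represses the DNA methyltransferase Dnmt1, had 761.1, 666.0 and 646.0 normalized counts at 10 µM, against 585.0, 493.7 and 387.2 in control. All libraries at 10 µM exceeded all controls, with library 1 the highest. The log2 difference was 0.52 ± 0.20 (SE, n = 3 per group), unadjusted p = 0.0192 and adjusted p = 0.665 by limma. miR-148b-3p, the most abundant of the family, had 17488, 14675 and 14404 normalized counts at 10 µM, against 14671, 13287 and 16228 in control. These overlapped, with a log2 difference of 0.07 ± 0.17 (SE). miR-148a-3p had 17.4, 272.5 and 125.3 normalized counts at 10 µM, against 18.05, 21.97 and 23.9 in control. Library 1 was just under the controls and libraries 2 and 3 far above it, which gave a log2 difference of 1.96 ± 0.68 (SE), or 3.07 without library 1 and 1.12 without library 2.

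**Figure D2:**
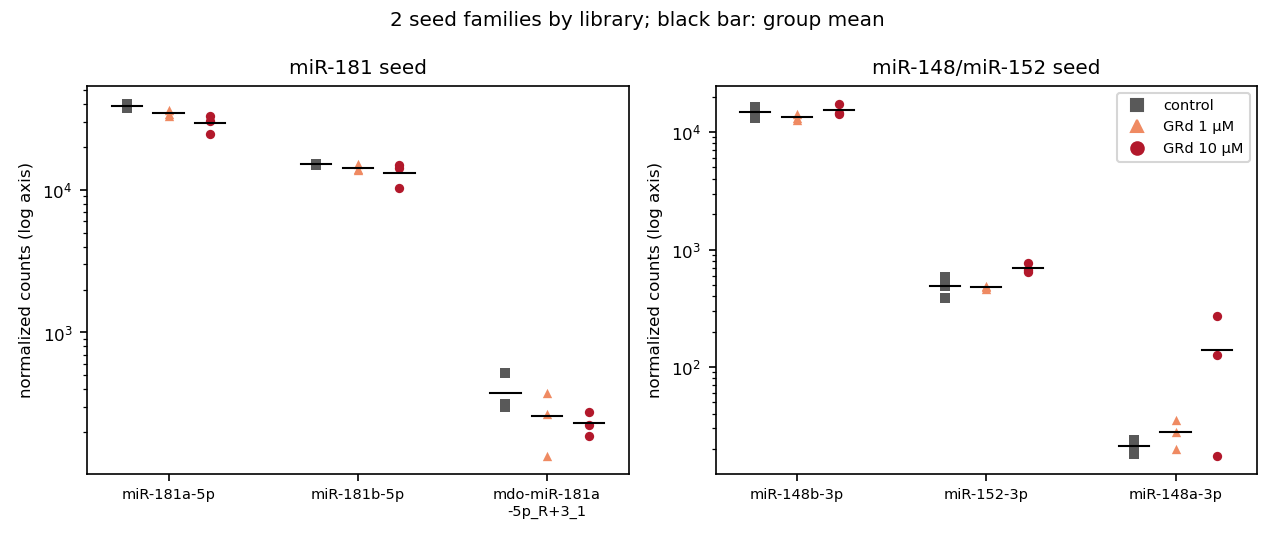
Normalized counts (log axis) by library in control (squares), GRd 1 µM (triangles) and GRd 10 µM (circles) for miRNAs with the miR-181 seed (left) and the miR-148/miR-152 seed (right), with black bars at group means. The 3 miR-181 sequences at 10 µM lie below all controls, miR-152-3p lies above them, miR-148b-3p overlaps them, and miR-148a-3p is high in 2 of 3 libraries.

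At 1 µM, a dose that shares its control libraries with 10 µM and so is only set beside it, the families gave the following values. miR-181a-5p averaged 38430 normalized counts in control, 34435 at 1 µM and 29326 at 10 µM. miR-152-3p averaged 488.6 in control, 477.0 at 1 µM and 691.0 at 10 µM.

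Several other abundant miRNAs were lower in all 3 libraries. miR-221-5p is the minor arm of the hairpin whose major arm, miR-221-3p, represses the cell cycle inhibitor Cdkn1b (chrX:19146348-19146369, minus strand, GRCm38). It had 4230, 3736 and 2103 normalized counts at 10 µM, against 4449, 4703 and 5461 in control, with a log2 difference of -0.59 ± 0.23 (SE). Library 3 was the lowest, and the difference was -0.29 without it. The major arms did not separate in this way. miR-221-3p had 484396, 519962 and 326678 normalized counts at 10 µM, against 455081, 468248 and 485466 in control, so that libraries 1 and 2 were in or above the control range and library 3 below it. miR-222-3p, from the same polycistron, had 357244, 378898 and 245217 normalized counts at 10 µM, against 373360, 385640 and 445612 in control, with overlap and a log2 difference of -0.32 ± 0.25 (SE), or -0.12 without library 3. All 4 arms of the polycistron had a negative difference, with a median of -0.27 that became -0.06 without 10 µM library 3.

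miR-331-3p (chr10:93963783-93963803, minus strand) had 1758, 1656 and 1143 normalized counts at 10 µM, against 2070, 2403 and 2004 in control. All libraries at 10 µM were below the lowest control, library 3 the furthest, and the log2 difference was -0.53 ± 0.19 (SE), unadjusted p = 0.0114 by limma, or -0.33 without library 3. miR-503-5p, which lies beside miR-322 on chromosome X and in human cells takes part in monocyte differentiation, had 371.5, 364.7 and 224.5 normalized counts at 10 µM, against 415.1, 441.5 and 438.9 in control, a log2 difference of -0.47 ± 0.22 (SE), or -0.23 without library 3. Its neighbour miR-322-5p, with 349.9, 229.5 and 174.9 normalized counts at 10 µM, against 253.8, 287.0 and 201.6 in control, overlapped. miR-342-3p, encoded in an intron of Evl, had 29044, 25085 and 23203 normalized counts at 10 µM, against 29266, 32731 and 30340 in control. Library 1 sat just under the lowest control, and the log2 difference was -0.26 ± 0.18 (SE). miR-99b-3p had a difference of -0.13 ± 0.16 (SE), with 6763, 6581 and 6883 normalized counts at 10 µM, against 7746, 7328 and 7117 in control.

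Lower in all 3 libraries by a similar amount was mmu-mir-3473h-p3, with 319.6, 290.5 and 314.1 normalized counts at 10 µM, against 432.1, 406.8 and 397.8 in control. Its log2 difference was -0.42 ± 0.20 (SE) and stayed at -0.43 without library 3. The 1 µM libraries, with 307.9, 331.7 and 341.9 normalized counts, were also below all controls. miR-6933-5p had 138.7, 144.5 and 89.5 normalized counts at 10 µM, against 161.4, 168.9 and 216.1 in control, and a difference of -0.57 ± 0.27 (SE), or -0.35 without library 3. pal-miR-9226-5p_1ss4AT, named after a bat and found in no mouse hairpin searched, differed by -0.78 ± 0.34 (SE) with all 3 libraries and by -0.24 without library 3. It had 184.3, 217.7 and 64.7 normalized counts at 10 µM, against 230.4, 225.6 and 257.9 in control. Variants under this name were mixed, as pal-miR-9226-5p lay below all controls and pal-miR-9226-5p_L-4 above them.

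**Figure D3:**
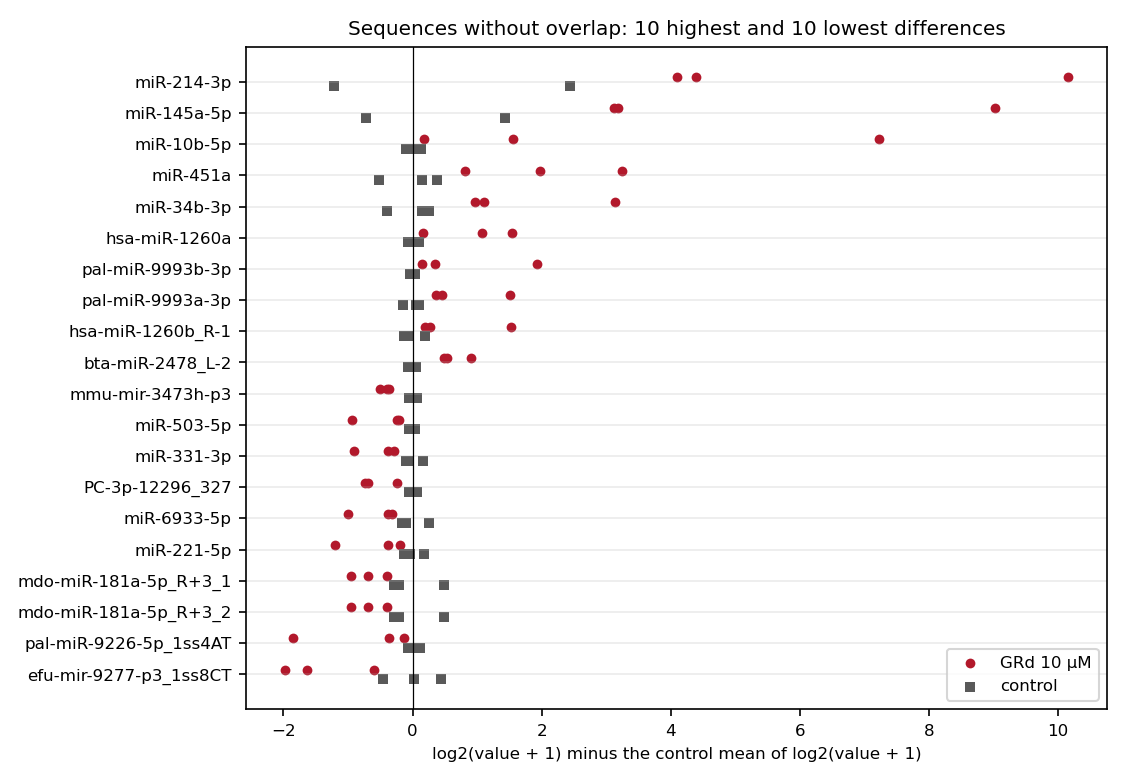
Abundant sequences (average of 50 or more normalized counts) without overlap between groups, the 10 highest and 10 lowest differences, as log2(normalized count + 1) minus the control mean (horizontal axis), with GRd 10 µM as red circles and control as grey squares. The upper rows are spread by single libraries, most of all miR-214-3p, miR-145a-5p and miR-10b-5p, and in most of the lower rows the 10 µM values lie closer together.

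Higher in all 3 libraries, and highest in library 1, was miR-212-5p, a miRNA of the CREB-responsive miR-212/132 locus. It had 795.9, 656.7 and 557.9 normalized counts at 10 µM, against 488.4, 505.3 and 507.9 in control, and a log2 difference of 0.41 ± 0.19 (SE), unadjusted p = 0.051 by limma. miR-671-3p had 828.7, 931.3 and 2227 normalized counts at 10 µM, against 784.6, 772.4 and 781.0 in control, a difference of 0.62 ± 0.28 (SE). Library 3 was the highest, and the difference was 0.17 without it.

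miR-34b-3p, of a locus that p53 activates, had 39.7, 44.1 and 181.8 normalized counts at 10 µM, against 14.9, 21.97 and 23.9 in control. All libraries at 10 µM were above all controls, and the log2 difference was 1.74 ± 0.55 (SE), or 1.04 without library 3. The list of 5 measured members of the p53-regulated miR-34 hairpins had 5 higher and 0 lower, a median of 1.04 and 1 member without overlap, beside 971 higher and 590 lower and a median of 0.14 over all sequences tested. The abundant member miR-34a-5p had 4534, 3226 and 2656 normalized counts at 10 µM, against 3619, 3956 and 2579 in control, with overlap.

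The largest differences without overlap belonged to miRNAs that were near 0 in control. miR-214-3p, transcribed with miR-199a from Dnm3os in mesenchymal cells, had 39.0, 48.2 and 2654 normalized counts at 10 µM, against 11.7, 0 and 0 in control. miR-145a-5p, a smooth muscle and fibroblast miRNA, had 13.9, 13.3 and 852.6 normalized counts at 10 µM, against 0, 3.43 and 0 in control. miR-10b-5p, encoded in the HoxD cluster, had 25.8, 9.22 and 1364 normalized counts at 10 µM, against 7.43, 8.93 and 7.96 in control. Library 3 stood far above all other libraries for these miRNAs. The log2 difference of miR-214-3p was 6.22 ± 1.29 (SE), with unadjusted p = 0.000143 and adjusted p = 0.224 by limma, and 4.25 without library 3. That of miR-145a-5p was 5.11 ± 1.25 (SE), or 3.15 without library 3. For miR-10b-5p it was 2.99 ± 1.14 (SE), or 0.87 without library 3.

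Markers of fibroblasts and muscle were high in 10 µM library 3 as a group. Of 12 listed, 8 were measured, and 7 were higher and 1 lower, beside 971 and 590 over all sequences tested. The listed miR-199b-5p was matched only through the deposited name hsa-miR-199b-5p_2ss10TC17TC. That sequence lies whole in a miR-199a hairpin and is given below as miR-199a-5p. Their summed level was 1145, 961.4 and 6730 normalized counts in 10 µM libraries 1, 2 and 3, against 922.9 to 1034 in control. The median difference was 1.25 with all libraries and -0.04 without library 3, over the members still tested. miR-199a-3p had 793.1, 593.9 and 1218 normalized counts at 10 µM, against 709.6, 683.4 and 523.3 in control, and overlapped. miR-199a-5p had 285.3, 289.6 and 1333 normalized counts at 10 µM, against 292.0, 323.6 and 382.3 in control, and only library 3 lay above the controls. miR-133a-3p, a muscle miRNA, was listed at 0 in all 3 libraries at 10 µM, and miR-206-3p at 0 in libraries 1 and 2 and at 12.4 in library 3. The part that cells of another type may have in these differences was not tested. miR-224-5p, miR-298-5p and miR-296-5p were listed at 0 in the control libraries and in 10 µM libraries 1 and 2. In library 3 miR-298-5p had 332.0 normalized counts, miR-296-5p had 300.3, and miR-224-5p was higher than both.

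Red cell markers were also highest in 10 µM library 3. Red cell miRNAs summed to 60.6, 145.5 and 357.4 normalized counts at 10 µM, against 41.9 to 54.2 in control. miR-451a, the erythroid miRNA that matures through Ago2 instead of Dicer, had 36.2, 83.0 and 201.1 normalized counts at 10 µM, against 13.8, 26.8 and 22.5 in control, a log2 difference of 2.01 ± 0.62 (SE). The 1 µM libraries, with 31.6, 76.0 and 222.7, covered a similar range. The liver miRNA miR-122-5p had 77.4, 82.0 and 455.9 normalized counts at 10 µM, against 47.8, 85.1 and 34.5 in control, with overlap and a difference of 1.44 ± 0.53 (SE), or 0.60 without library 3. Epithelial miRNAs summed to 2467, 2265 and 2720 normalized counts at 10 µM and 2201 to 2316 in control, and endothelial miRNAs to 55.1, 45.1 and 60.6 at 10 µM and 22.5 to 34.0 in control. Neuronal miRNAs summed to 2766, 3022 and 2066 normalized counts at 10 µM, against 2437 to 2697 in control, nearly all of it miR-128-3p. The lymphocyte, embryonic stem cell and Dlk1-Dio3 lists summed to 9.76 to 55.1 normalized counts at 10 µM, against 5.31 to 38.5 in control. miR-294-3p, of embryonic stem cells, was listed at 0 in all 3 libraries at 10 µM.

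**Figure D4:**
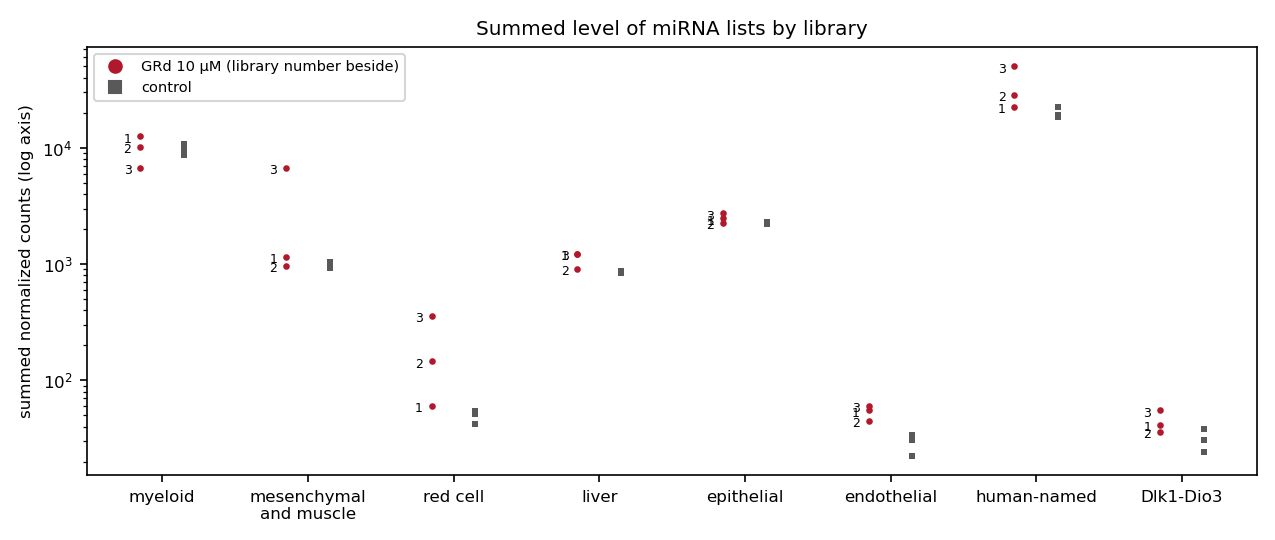
Summed normalized counts (log axis) of miRNA lists in each library at GRd 10 µM (red circles, library number beside each) and control (grey squares). The mesenchymal and muscle list reaches 6730 in 10 µM library 3 and is at most 1145 in the other libraries, and the myeloid list is lowest there.

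Sequences with names of human miRNAs, some deposited with the cattle prefix bta, were higher in all 7 cases measured. Their median difference was 0.93, or 0.62 without library 3. Of these 7, 1 lay above all controls, beside 3.72% of all sequences tested, of which 971 were higher and 590 lower. The list held 11 names of human miRNAs. Both miR-1246 sequences that follow are variants under 1 of these names. bta-miR-1246_R+2 had 56.5, 4754 and 796.2 normalized counts at 10 µM, against 101.9, 100.9 and 22.5 in control. hsa-miR-1246_L-1R+2 had 17.1, 2394 and 376.0 normalized counts at 10 µM, against 25.5, 38.5 and 13.3 in control. hsa-miR-1290_1ss13TG had 2.44, 371.9 and 61.98 normalized counts at 10 µM, against 0, 6.18 and 0 in control. Library 2 was the highest for these, library 3 next, and library 1 within the control range. The log2 differences were 3.26 ± 0.97, 3.37 ± 1.05 and 4.49 ± 1.34 (SE) in this order, with limma's unadjusted p = 0.00369, 0.00515 and 0.00358. Their adjusted p was 0.538 in each case. Without library 2 the differences were 1.77, 1.75 and 2.93, and without library 1 they were 4.96, 5.27 and 6.31. In the fit without 10 µM library 1, these sequences were among the 13 sequences that passed, 12 of them higher and 1 lower. miR-148a-3p, miR-214-3p and hsa-miR-1260a were among the higher ones, and the lower one was efu-mir-9277-p3_1ss8CT.

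Sequences under the name miR-1260 were also higher. hsa-miR-1260a had 895.9, 1695 and 2349 normalized counts at 10 µM, against 763.9, 861.7 and 785.0 in control, a log2 difference of 0.93 ± 0.26 (SE, n = 3 per group) with unadjusted p = 0.00201 and adjusted p = 0.538 by limma. All libraries at 10 µM exceeded all controls, library 3 the most, and the difference was 0.62 without it. The 1 µM libraries, with 1072, 1091 and 993.3 normalized counts, also exceeded all controls. bta-miR-1260b_1ss9AG had 17307, 16878 and 42298 normalized counts at 10 µM, against 13790, 16953 and 13978 in control, and overlapped, with a log2 difference of 0.64 ± 0.27 (SE), or 0.20 without library 3. hsa-miR-1260b_R-1, with 1788, 1704 and 4271 normalized counts at 10 µM, against 1426, 1697 and 1350 in control, did not overlap, and the difference was 0.66 ± 0.26 (SE), or 0.23 without library 3.

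The 2 most abundant sequences above all controls matched no mouse hairpin searched whole or by core. mmu-miR-3968_L-3_1ss14AT, a variant named after a mouse miRNA, had 18827, 23293 and 27171 normalized counts at 10 µM, against 14341, 15423 and 17830 in control. All libraries at 10 µM exceeded all controls, library 3 the most, and the log2 difference was 0.53 ± 0.18 (SE), with unadjusted p = 0.00942 by limma. For this variant the 1 µM libraries, with 21142, 21411 and 20628 normalized counts, also exceeded all controls. bta-miR-2478_L-2, under a cattle name, had 16134, 16698 and 21533 normalized counts at 10 µM, against 11736, 11924 and 10950 in control. Its log2 difference was 0.64 ± 0.17 (SE), or 0.51 without library 3, with unadjusted p = 0.0017 by limma. The 1 µM libraries had 16276, 16356 and 14487 normalized counts. pal-miR-9993a-3p and pal-miR-9993b-3p, also outside mouse hairpins, had differences of 0.78 ± 0.23 and 0.81 ± 0.31 (SE), or 0.42 and 0.25 without library 3. For both, all libraries at 1 µM also exceeded all controls.

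The sequence with the lowest difference among those without overlap, efu-mir-9277-p3_1ss8CT, had 111.5, 54.3 and 42.7 normalized counts at 10 µM, against 231.5, 172.3 and 123.3 in control. Its log2 difference was -1.40 ± 0.36 (SE), or -1.12 without library 3, with unadjusted p = 0.00103 and adjusted p = 0.537 by limma. Though named after a bat miRNA, its 24 bases lie whole in 2 serine tRNA genes with the anticodon TGA, n-TStga1 at chr13:23518188-23518211 (plus strand) and n-TStga2 at chr13:21924951-21924974 (minus strand) of GRCm38, at positions 43 to 66 of the 82 bases. Per the labels, tRNA reads were filtered before deposit, and the part of that filter in these values was not tested. PC-3p-12296_327, named by the authors and found in no mouse hairpin, had 62.0, 44.1 and 45.5 normalized counts at 10 µM, against 71.1, 77.6 and 72.9 in control, a difference of -0.56 ± 0.32 (SE). PC-5p-3713_1568 had 1257, 1292 and 3178 normalized counts at 10 µM, against 2111, 2052 and 2212 in control. It overlapped because library 3 was higher, and passed in the fit without that library, where the log2 difference was -0.74 with adjusted p = 0.0197 by limma.

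Among the 71 abundant sequences in no mouse hairpin, 8 were above and 5 below all controls, out of 23 and 18 over all 417. The 346 found in a mouse hairpin had 15 above and 13 below.

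The miRNAs of the Toll-like receptor response were mixed. Of 16 measured, 9 were higher and 7 lower, with a median difference of 0.08, and 0 passed the limma test, beside 971 higher, 590 lower and a median of 0.14 over all sequences tested. Without library 3 the median was 0.33 and without library 1 it was -0.13. Above all controls lay 2 of the 16, beside 3.72% of all sequences tested, namely miR-212-5p, given above, and the scarce miR-9-5p, with 26.0, 34.5 and 21.1 normalized counts at 10 µM, against 16.6, 13.7 and 11.9 in control. The most abundant overlapped. miR-155-5p had 83537, 55424 and 33780 normalized counts at 10 µM, against 66926, 71210 and 54164 in control. Library 1 was above and library 3 below all controls, so the log2 difference of -0.24 ± 0.27 (SE) had a 95% interval of -0.81 to 0.33. miR-146a-5p had 168936, 166496 and 54178 normalized counts at 10 µM, against 148167, 173836 and 180692 in control, with a difference of -0.54 ± 0.33 (SE) that became 0.01 without library 3. miR-146b-5p, of the same seed, had 111852, 84647 and 40664 normalized counts at 10 µM, against 90390, 90732 and 92206 in control, a difference of -0.32 ± 0.28 (SE), or 0.09 without library 3.

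miR-21a-5p, which represses the translation inhibitor Pdcd4, had 393189, 287738 and 194505 normalized counts at 10 µM, against 333588, 292297 and 271480 in control. Its log2 difference was -0.09 ± 0.27 (SE). miR-21a-3p, the other arm of the hairpin, had 2631, 2433 and 783.8 at 10 µM, against 2502, 2644 and 3007 in control, so that libraries 2 and 3 were below all controls, library 3 by far the most. The difference of -0.66 ± 0.31 (SE) was -0.10 without library 3.

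Of 15 measured miRNAs that restrain inflammatory signalling or mark alternative activation, 5 were higher and 10 lower, with a median of -0.03, or -0.17 without library 1, and 0 passing the limma test. Over all sequences tested, 971 were higher and 590 lower. Below all controls lay 2 of the 15, both in the miR-181 family described above, beside 2.56% of all sequences tested. miR-125b-5p, which lowers tumour necrosis factor, had 112378, 147227 and 185668 normalized counts at 10 µM, against 129889, 117394 and 154566 in control. miR-125a-5p, from the miR-99b cluster, had 53485, 67593 and 81932 normalized counts at 10 µM, against 64661, 61181 and 92849 in control. Both overlapped, with differences of 0.13 ± 0.23 and -0.10 ± 0.22 (SE).

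Other families had medians near 0 over all 3 libraries, while in each of them the medians of 10 µM libraries 1 and 3 had opposite signs. The let-7 family, a set of differentiation-associated miRNAs, had 3 higher and 6 lower of 9, with a median of -0.01, or 0.10 without library 3 and -0.10 without library 1. The miR-17-92 polycistron, which supports proliferation, had 5 higher and 5 lower of 10, with a median of -0.02, or 0.18 without library 3 and -0.07 without library 1. For the miR-15-16 family, with 1 higher and 5 lower, the median was -0.07, or 0.23 without library 3 and -0.38 without library 1. The miR-30 family had 2 higher and 3 lower and a median of -0.02, or 0.09 without library 3 and -0.35 without library 1. These families therefore had a direction that depended on which library was left out. The miR-23a-27a-24-2 polycistron, with 1 higher and 5 lower, had a median of -0.13, or 0.09 without library 3, and its relative miR-23b-27b-24-1, with 1 higher and 4 lower, had -0.12, or 0.07 without library 3. Without library 1 these were -0.24 and -0.28. The miR-106b-25 polycistron had 3 higher and 3 lower and a median of 0.01, or 0.08 without library 3 and -0.06 without library 1. In the miR-29 family, with 2 higher and 1 lower, the median was 0.11, or 0.20 without library 3 and 0.06 without library 1. The miR-99b-125a polycistron had 3 higher and 3 lower and a median of -0.01, or -0.09 without library 3 and 0.03 without library 1. In these lists 0 members passed the limma test and 1, miR-99b-3p, was apart from all controls.

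The most abundant sequence was miR-99b-5p, with 546146, 458362 and 1085106 normalized counts at 10 µM, against 611204, 574402 and 483807 in control. miR-5099-3p had 272531, 250444 and 1058760 normalized counts at 10 µM, against 320224, 265476 and 234676 in control. Library 3 was high for both, and their log2 differences were 0.23 ± 0.31 and 0.62 ± 0.40 (SE).

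**Figure D5:**
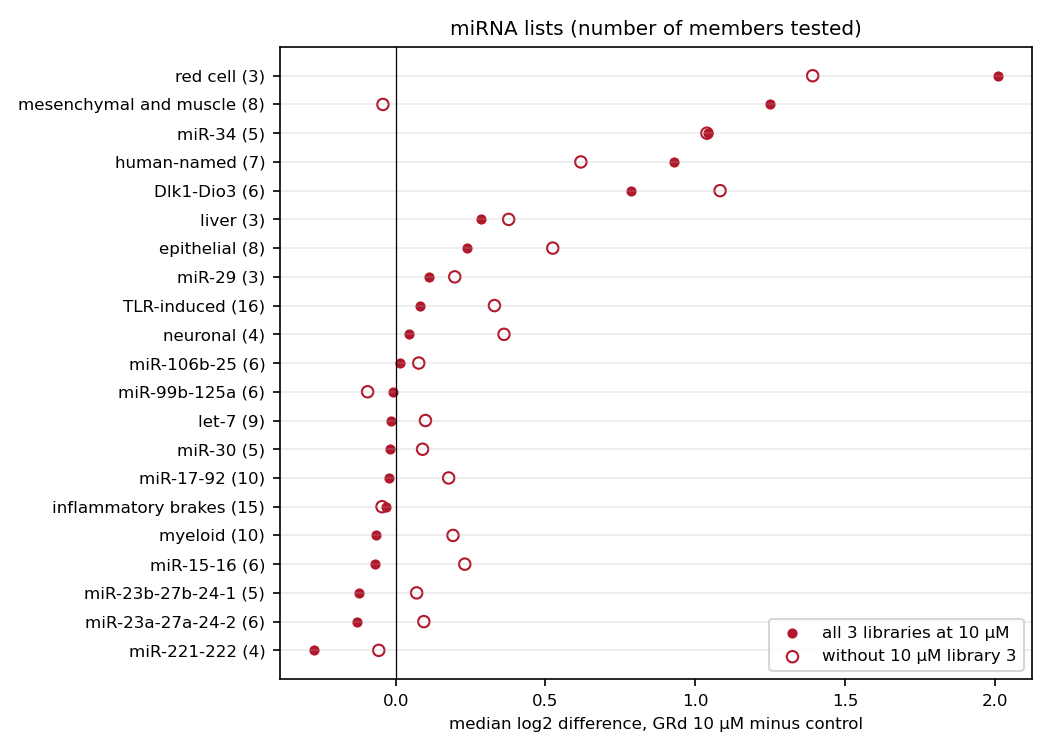
Median log2 difference, GRd 10 µM minus control, for each miRNA list with at least 3 members tested, with the number tested in brackets, from all 3 libraries at 10 µM (filled circles) and without library 3 (open circles). The mesenchymal and muscle list stands at 1.25 with all libraries and at -0.04 without library 3, and most polycistrons and families stay within 0.3 of 0.

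Of 211 hairpins with both arms in the table, the balance of the 2 arms was compared in the 88 whose arms each averaged 50 or more normalized counts, as the log2 ratio of the 5p over the 3p arm. It lay above all controls in 2 hairpins (2.27%) and below all controls in 7 (7.95%). As for single sequences, shares of this size also arise where groups do not differ. The 2 above were let-7i and let-7g. For let-7i the ratio was 5.29, 5.32 and 5.28 at 10 µM, against 5.04, 4.97 and 5.14 in control. let-7g had 7.43, 7.73 and 8.40 at 10 µM, against 7.32, 7.31 and 7.41 in control, library 3 being the most different. Those below were miR-3068, miR-6546, miR-29c, miR-30a, miR-221, miR-191 and miR-1934. In miR-30a the ratio was 2.41, 2.27 and 1.30 at 10 µM, against 2.56, 2.48 and 2.70 in control, while the 5p arm alone, with 15670, 11488 and 5867 normalized counts at 10 µM, against 13175, 13028 and 13907 in control, overlapped, with a log2 difference of -0.39 ± 0.27 (SE). The 3p arm of miR-30a lay above all controls in each library at 10 µM.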

How the data were processed

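Small RNA libraries from 9 samples were sequenced, of which the 6 of GRd 10 µM and control are compared. Per the labels' protocols, TruSeq small RNA libraries were run on a HiSeq instrument and the ACGT101-miR program took out reads of adapters, low complexity, other RNA classes and repeats. As signal values, the authors deposited normalized counts per sequence. The scaling formula, the mapping, the genome build and the miRBase release were not given in the sources used. The filter can lower sequences that resemble tRNA, and scaling hides a change shared by most miRNAs.

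Of 1608 rows, 37 repeated a sequence with the same values, leaving 1571. Names are often of other species, so sequences were searched in 1005 RefSeq and 1174 GENCODE mouse hairpins: 689 were found whole, 164 by their core (2 bases at the 5′ and 4 at the 3′ end left out) and 718 not. List members were matched through the hairpin found, which extended the planned match by name.

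The test was limma 3.58.1 (R 4.3.3) on log2(value + 1) over all 9 libraries with 1 mean per group, on every sequence averaging 1 or more in any group, with the trend of variance on mean and a Benjamini-Hochberg threshold of 0.05. It was also run on simulated data in which each sequence had the same spread in all groups. The libraries here differ from that setting, as their spread was wider at 10 µM. Sequences lacking residual variance were dropped, a step chosen once the data had been seen, which removed 0 here and 86 where 1 library was left at 10 µM. The members and the 24 lists were chosen with earlier results of these data known. Named sequences were the 5 smallest p, the 10 highest and 10 lowest differences without overlap, the 5 most extreme each way per 10 µM library, up to 4 per list and the 10 most abundant. The seed families, arm ratios, tRNA positions, printed sequences and which of the named sequences the text gives with values were chosen after values were seen, as were miR-152-3p, miR-148b-3p, miR-181b-5p, miR-212-5p, miR-342-3p, miR-671-3p, mmu-miR-3968_L-3_1ss14AT and the less abundant list members named. Tables and plots came from pandas 2.3.3, numpy 2.4.6 and matplotlib 3.10.9 under Python 3.11.15. Alternatives changed the pseudocount, filters, scaling, sequence set, library weights, replicate block and libraries included.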

Additional observations from a re-analysis of the deposited data

How the results depend on the processing

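The values carry no read depth, so precision rests on 3 libraries per group. limma fitted 1 spread per sequence over all 9 libraries. The median standard deviation of the abundant sequences was 0.46 at 10 µM, but 0.13 at 1 µM and 0.17 in control. The errors and p-values therefore do not reflect the wider spread at 10 µM in full. The count of sequences passing the limma test was 0 under every alternative except leaving out a 10 µM library: with 1 replicate left out of any group it ranged from 0 to 13, with 13 without 10 µM library 1 and 1 without library 3. Counting equal-valued copies once, an alternative chosen after seeing the data, also gave 0. Deviations of same-numbered libraries from their group means correlated by 0.146, 0.05 and -0.0491, and those of differently numbered ones by -0.231 to 0.155. With 3 libraries per group, these values cannot decide whether the numbers pair the libraries. With the replicate number as a block in limma, 0 passed and 69 had an unadjusted p under 0.05. The count without overlap was 41 of 417 (9.83%). It was 72 of 687 (10.5%) at a mean of at least 10, and 19 of 210 (9.05%) at a mean of at least 500. With 3 libraries against 3, such shares can arise at any minimum without a group difference, so their steadiness does not bear on the differences. The count was 55 of 423 to 102 of 420 with 1 library left out, which by its construction leaves fewer values to overlap.

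The direction of many named differences depended on single libraries. Of 120 named sequences, 61 changed sign under some alternative, 41 of them without 10 µM library 3, 15 without library 1, 7 without library 2, 6, 4 and 17 without control libraries 1, 2 and 3, 41 with 10 µM library 1 as the only one of its group, 26 with array weights, 1 with a pseudocount of 0.1, 5 with equal library totals and 4 with median-of-ratios scaling. Of the 62 tested sequences whose values the text gives, 20 changed sign, and the cause was not tested. With 1 library left out, differences ranged from -0.25 to 0.084 for miR-125a-5p, -0.05 to 0.31 for miR-125b-5p, -0.37 to 0.29 for miR-142a-5p, -0.81 to 0.0065 for miR-146a-5p, -0.63 to 0.095 for miR-146b-5p, -0.014 to 0.15 for miR-148b-3p, -0.56 to 0.10 for miR-155-5p, -0.20 to 0.91 for miR-199a-5p, -0.22 to 0.29 for miR-181c-5p, -0.29 to 0.21 for miR-322-5p, -0.19 to 0.20 for miR-34a-5p, -0.33 to 0.17 for miR-21a-5p, -0.24 to 0.10 for miR-221-3p, -0.044 to 0.19 for miR-223-3p, -0.70 to 0.0057 for miR-30a-5p, -0.054 to 0.99 for miR-5099-3p and -0.15 to 0.48 for miR-99b-5p. With array weights, which gave 10 µM library 3 the least weight, miR-142a-5p was at 0.14, miR-181c-5p at 0.18, miR-322-5p at 0.0996, miR-21a-5p at 0.060, miR-221-3p at 0.047 and miR-99b-5p at -0.078. For miR-34a-5p the difference was -0.0077 with equal library totals and -0.00388 with median-of-ratios scaling. With 10 µM library 1 as the only one of its group, taken to vary like the other groups, the difference was -0.13 for bta-miR-1246_R+2, -0.45 for hsa-miR-1246_L-1R+2, -0.24 for miR-125b-5p, 0.40 for miR-142a-5p, 0.017 for miR-146a-5p, 0.30 for miR-146b-5p, -0.27 for miR-148a-3p, 0.39 for miR-155-5p, 0.25 for miR-181c-5p, 0.51 for miR-322-5p, -0.21 for miR-199a-5p, 0.40 for miR-21a-5p, 0.045 for miR-221-3p, 0.23 for miR-30a-5p and -0.020 for miR-99b-5p.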
